A study of Mus musculus with 6 samples.

Results

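Imprinted growth genes are described here in the outflow tract, the arterial outlet of the embryonic mouse heart. The group is made of 10 genes: Igf2, H19, Igf2r, Grb10, Cdkn1c, Phlda2, Plagl1, Peg3, Mest and Meg3. All probe sets whose platform annotation names only 1 of these genes were taken. That gave 29 probe sets for 9 of the genes, out of 18193 genes with a probe set of their own on the array. The only probe set of H19 also names Mir675, so it lies outside the rule and is given apart. A second probe set outside the rule names Airn and Igf2r together. The group was chosen on measured values of these same arrays, because Phlda2 was called between the regions in a fit paired by pool number. The region differences of the members are therefore a description, with no test, and they support nothing.

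Per the labels, the tissue was the superior or the inferior subdomain of the outflow tract, cut from hearts of CD1 embryos on embryonic day 10.5. Total RNA of 3 superior pools and 3 inferior pools, numbered 1, 6 and 7 in both regions, was hybridised to Affymetrix Mouse Genome 430 2.0 arrays, 6 in all. The animals carried no engineered allele and received no treatment that the labels mention. The sample labels give 6 littermate embryos per pool and the series design gives 7 pieces per pool, and the difference is not settled here. Nothing says that a pool number marks a litter, so p-values speak only of these pools. Without pairing they rest on the spread between pools of a region. In the paired fit and the test of pool number they rest on how the region difference varies over pool numbers.

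An imprinted gene is transcribed mainly from the copy inherited from 1 parent, under the control of DNA methylation laid down in the germ line. Many imprinted genes act on growth: paternally expressed ones such as Igf2 tend to promote growth of the fetus and placenta, and maternally expressed ones such as Igf2r, Grb10, Cdkn1c and Phlda2 tend to restrain it. The genes lie in clusters, and in mouse Phlda2, Cdkn1c, Igf2 and H19 share a stretch of chromosome 7. Arrays of this kind do not tell the parental copies apart.

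The promoters of Phlda2, Meg3 and Mest are shown because these genes had the largest region differences of the group. Each is the 250 bases before the start of transcription in RefSeq, build GRCm38.p6, written 5′ to 3′ along the gene's strand with CpG sites, the bases that DNA methylation marks, in capitals.
Phlda2, chr7:143502525-143502774, minus strand: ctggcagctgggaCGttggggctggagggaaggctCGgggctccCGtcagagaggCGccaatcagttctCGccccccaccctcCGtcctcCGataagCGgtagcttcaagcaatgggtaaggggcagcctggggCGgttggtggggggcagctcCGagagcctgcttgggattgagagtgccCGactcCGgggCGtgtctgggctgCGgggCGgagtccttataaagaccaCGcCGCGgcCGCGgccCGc
Meg3, chr12:109540746-109540995, plus strand: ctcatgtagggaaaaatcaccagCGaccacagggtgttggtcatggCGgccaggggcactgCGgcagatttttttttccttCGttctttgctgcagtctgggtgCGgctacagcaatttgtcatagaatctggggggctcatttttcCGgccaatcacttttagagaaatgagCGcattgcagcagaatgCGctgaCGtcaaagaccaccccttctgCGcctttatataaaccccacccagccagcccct
Mest, chr6:30737800-30738049, plus strand: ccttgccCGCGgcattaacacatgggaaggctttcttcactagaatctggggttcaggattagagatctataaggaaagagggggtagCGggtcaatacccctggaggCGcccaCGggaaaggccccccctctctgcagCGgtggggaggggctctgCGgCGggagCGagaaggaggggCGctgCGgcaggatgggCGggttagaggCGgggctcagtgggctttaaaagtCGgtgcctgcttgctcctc
The Phlda2 window held 21 CpG sites, the Mest window 14 and the Meg3 window 10, against a median of 6 over 32851 windows of the same length. RefSeq lists further starts for Mest and Meg3, which are not shown. On either strand, the letters CCAAT occurred in the Phlda2 and Meg3 windows and in 33.8% of all windows. GGGCGG, a GC box, occurred in the Phlda2 and Mest windows and in 32.7% of all. TATAAA occurred in the Phlda2 and Meg3 windows and in 12.4% of all. These matches describe the letters only. In all, 8 of the 10 genes had a window in the RefSeq table, and Cdkn1c and H19 had none.

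The arrays measured 27 of the 29 probe sets above background, a signal of 8.0, on all 6 arrays, and the same 27 passed the filter on dim probe sets. The exceptions were a pair of Peg3 probe sets with signals of 0.1 to 2.3. Signals are the authors' MAS5 values, relative to the rest of each array. Differences are on the scale log2(signal + 3.2), superior minus inferior, and a difference is given as the mean ± SD over 3 pools. Per array, the median signal was 13.9 to 17.6. In tissue this mixed, fewer cells of a type and less RNA per cell cannot be told apart.

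Phlda2, a pleckstrin homology domain protein that restrains growth of the placenta, was lower in the superior pools. Its signal was 107.9, 55.0 and 175.8 in superior pools 1, 6 and 7, against 177.0, 94.9 and 307.3 in inferior pools 1, 6 and 7. The ranges of the regions overlap, because the pools differ from each other by more than the regions do, but within every pool number the superior signal was the lower one. The log2 differences were -0.70, -0.75 and -0.79, a mean of -0.75 ± 0.05 (SD, n = 3), so the inferior signal was 1.68-fold the superior one. Over both regions, pool 6 had the lowest mean signal, 74.9, then pool 1 with 142 and pool 7 with 242. The limma fit paired by pool number gave an adjusted p of 0.0484, which is the value the group was chosen by and from which nothing is read. Without the pairing the adjusted p was 1.00. Leaving out 1 array, which also breaks a pair, moved the unpaired difference over a range of -1.17 to -0.32, the outer values being those without the inferior and the superior array of pool 6.

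Cdkn1c, an inhibitor of cyclin-dependent kinases that halts the cell cycle, lies close to Phlda2. Its signal was 3029.8, 3277.5 and 3501.5 in superior pools 1, 6 and 7, against 2959.4, 2747.5 and 3692.9 in inferior pools. The regions overlap, and the direction was mixed over the pools, with a mean log2 difference of 0.07 ± 0.17 (SD, n = 3).

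Igf2, the secreted growth factor of the group, was measured by a bright and a dim probe set. The bright one, 1448152_at, had signals of 4501.9, 6219.0 and 4860.6 in superior pools 1, 6 and 7, against 4053.6, 4685.2 and 4364.1 in inferior pools. It was higher in the superior array of every pool, with overlapping ranges and a mean log2 difference of 0.24 ± 0.15 (SD, n = 3), which was 0.10 without the superior array of pool 6 and 0.15 without that whole pool. The dim one, 1415931_at, had 35.3, 150.7 and 99.4 in superior pools, against 27.7, 129.9 and 129.7 in inferior pools. Its region difference was mixed over the pools, and both arrays of pool 1 lay far below the others.

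H19, a maternally expressed long RNA beside Igf2, is the host of the microRNA miR-675, whose mature forms from RefSeq (GRCm38.p6, chromosome 7, minus strand) are shown because they name the probe set. Capitals mark the seed, bases 2 to 8.
mmu-miR-675-5p, chr7:142577112-142577133: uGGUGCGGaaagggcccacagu
mmu-miR-675-3p, chr7:142577078-142577099: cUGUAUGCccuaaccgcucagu
The probe set that names both Mir675 and H19 had signals of 3934.0, 6440.6 and 4866.8 in superior pools 1, 6 and 7, against 3471.8, 4533.8 and 4548.0 in inferior pools. The superior array was the higher one in every pool, with a mean log2 difference of 0.26 ± 0.22 (SD, n = 3) and overlapping ranges. Standard labelling for this array starts from the poly(A) tail, so the signal does not measure the mature microRNA.

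Igf2r, the receptor that carries Igf2 to the lysosome for breakdown, had 2 probe sets with little difference between regions. For 1424112_at, signals were 1940.8, 3081.7 and 2533.7 in superior pools 1, 6 and 7, against 1928.7, 3044.0 and 2785.1 in inferior pools. Its mean log2 difference was -0.04 ± 0.09, and that of 1424111_at was -0.05 ± 0.13 (SD, n = 3 each). The probe set shared by Airn and Igf2r was dim, at 5.8 to 16.5 in superior and 11.2 to 25.5 in inferior pools, and was not tested.

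Grb10, an adaptor that dampens signalling by the insulin and IGF receptors, gave probe sets that disagree. The brightest, 1425458_a_at, had 2945.7, 4120.2 and 3660.6 in superior pools 1, 6 and 7, against 2627.0, 3452.2 and 3213.1 in inferior pools, and was higher in the superior array of every pool (0.20 ± 0.05, SD, n = 3). Leaving out 1 array also breaks a pair. The unpaired difference was then 0.089 without inferior pool 1, 0.094 without superior pool 6 and 0.34 without superior pool 1. With a whole pool left out it ran from 0.18 to 0.22. In contrast, 1430164_a_at had 205.8, 189.2 and 224.1 in superior pools, against 254.7, 209.0 and 257.9 in inferior pools, and was lower in the superior array of every pool (-0.21 ± 0.08). The dimmest, 1425457_a_at, was mixed, at -0.43 ± 0.70. No direction is given for the gene.

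Plagl1, a zinc finger transcription factor that restrains proliferation, had 1 probe set of 3 without overlap between the regions. For 1426208_x_at, signals were 3873.8, 4251.4 and 3846.4 in superior pools 1, 6 and 7, against 3435.9, 3315.7 and 3503.4 in inferior pools, a mean log2 difference of 0.22 ± 0.12 (SD, n = 3). The other Plagl1 probe sets were mixed over the pools. Peg3, a paternally expressed zinc finger protein, was mixed in all 3 of its tested probe sets. The brightest of them, 1433924_at, had 3206.4, 3505.5 and 3221.0 in superior pools, against 3051.2, 3132.1 and 3311.5 in inferior pools.

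Mest, a paternally expressed protein of the alpha/beta hydrolase fold, had the largest positive difference of the group. Signals were 1589.3, 1677.3 and 1839.6 in superior pools 1, 6 and 7, against 927.5, 1261.2 and 1542.1 in inferior pools. Every superior signal lay above every inferior one. The log2 differences were 0.77, 0.41 and 0.25, a mean of 0.48 ± 0.27 (SD, n = 3), or 1.39-fold higher in superior, with pool 1 the widest apart. The mean was 0.28 without the inferior array of pool 1, which also breaks a pair, and 0.33 without that whole pool.

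Meg3, a maternally expressed long non-coding RNA, was lower in the superior array of every pool by 10 of its 11 probe sets. The mean log2 differences of the 11 ran from -0.79 to -0.12. The brightest, 1439380_x_at, had 2909.5, 1986.6 and 2296.4 in superior pools 1, 6 and 7, against 3311.1, 2095.8 and 2463.3 in inferior pools. Its difference was small in each pool, -0.12 ± 0.06 (SD, n = 3), and was 0.06 when the inferior array of pool 1 was left out. Leaving out 1 array also breaks a pair. With a whole pool left out, the difference was -0.089 without pool 1, -0.14 without pool 6 and -0.13 without pool 7. The widest difference was that of 1428765_at, with 78.1, 54.5 and 67.6 in superior pools, against 171.3, 106.5 and 86.3 in inferior pools. There every superior signal lay below every inferior one (-0.79 ± 0.40), as it did for 1452906_at (-0.37 ± 0.21). The probe sets share 1 gene and the same arrays, so their count is no count of independent measurements.

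**Figure D1:**
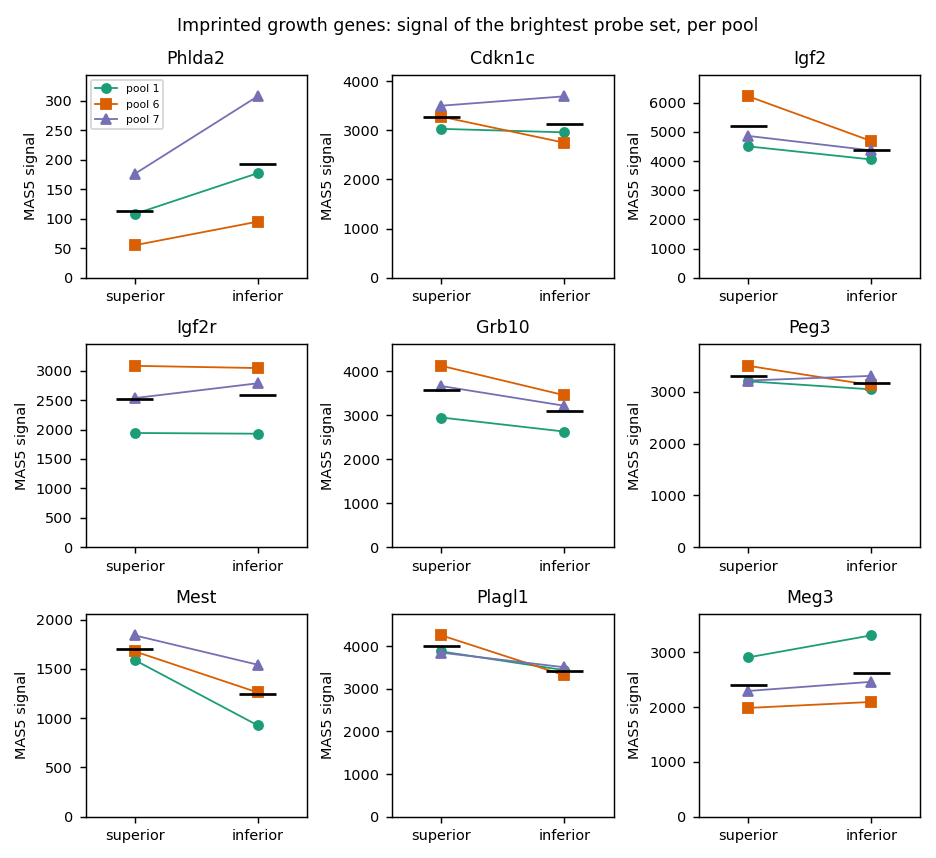
MAS5 signal (linear, from 0) of the brightest probe set of each gene in superior and inferior pools, with lines joining arrays of the same pool number and black bars for the mean of 3 pools. Phlda2 and Meg3 lines climb towards the inferior arrays in all pools, and those of Mest, Igf2, Grb10 and Plagl1 descend.

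Over the 27 tested probe sets, 4 were higher in the superior array of every pool, 12 were lower and 11 were mixed. After quantile normalization, which gives all arrays the same distribution, 1 was higher in every pool and 16 were lower. Over all 22518 tested probe sets, 15% were higher in every pool and 19% lower. The superior signals lay all above the inferior ones for 2 member probe sets (4.65% of all tested) and all below for 2 (4.56%). The unpaired limma fit called 0 member probe sets and 0% of all tested ones, although 792 had an unadjusted p below 0.05. The paired fit called 1 member, Phlda2, where it called 0.0666% of all as lower and 0.0933% as higher in superior. Because the members were chosen with this contrast in view, nothing is read from these counts.

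**Figure D2:**
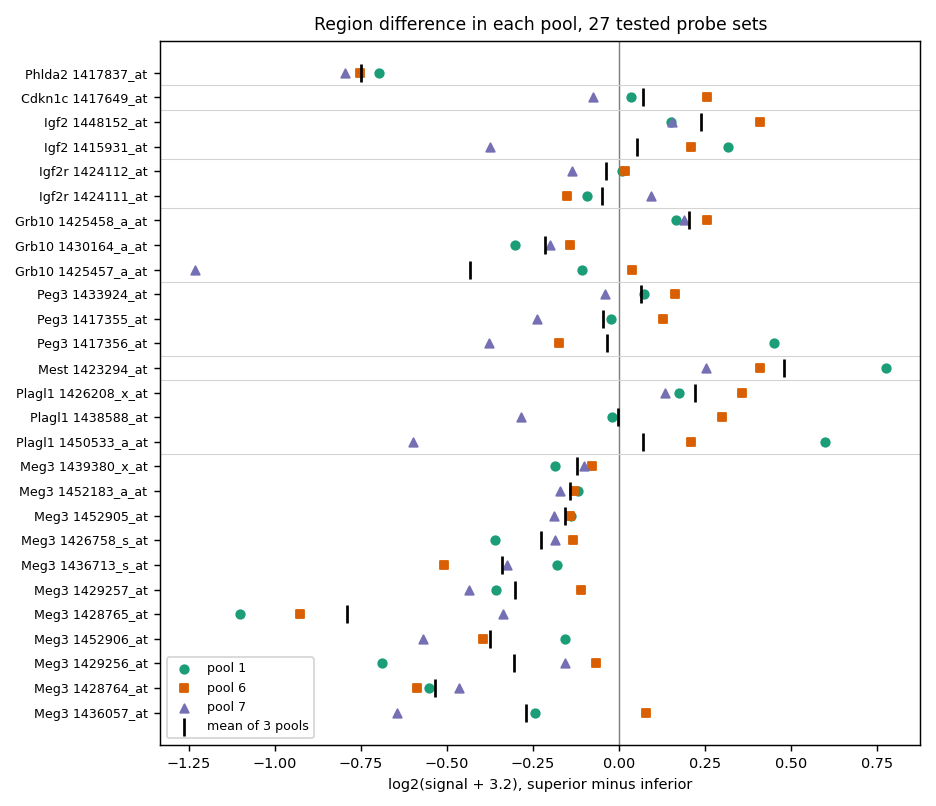
Difference in log2(signal + 3.2), superior minus inferior, for the 27 tested probe sets, with 1 marker per pool and a bar for the mean of 3 pools. The Phlda2 markers lie between -0.79 and -0.70, and 10 of 11 Meg3 probe sets have all markers left of 0.

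Region differences over all tested probe sets differed with signal strength. Among all tested probe sets with a mean signal above 2000, the median log2 difference was 0.20 over 616 probe sets. Of these, 68.3% were higher in the superior array of every pool and 0.974% were lower. The median of this class was 0.12 in pool 1, widest in pool 6 with 0.36, and 0.08 in pool 7. The superior array of pool 6 also stood apart in its spiked control transcripts, which summed to 1.59-fold the level of the median array. It also held the highest signal of any array, 8610. The part of that array in the class median was not tested. Between signals of 500 and 2000 the median was 0.04, and below 100 it was -0.06. The differences of Igf2 (0.24), Grb10 (0.20) and Plagl1 (0.22) in their brightest probe sets were thus close to the median of their own signal class. The probe set naming Mir675 and H19 lay in the same class, with 0.26 and its widest difference, 0.51, in pool 6. Not all bright members lay close to it. Cdkn1c (0.07) and the brightest probe set of Peg3 (0.06) lay below the median of the same class. Further below lay Igf2r 1424112_at (-0.04), Peg3 1417355_at (-0.05) and Meg3 by 1439380_x_at (-0.12) and 1452183_a_at (-0.14). Mest (0.48) lay above the median of the class under that. After quantile normalization, the first 3 were -0.00 for Igf2, 0.03 for Grb10 and 0.02 for Plagl1. Mest kept a difference of 0.40 ± 0.29 and Phlda2 one of -0.73 ± 0.08 (SD, n = 3 each). Under that scaling 10 Meg3 probe sets were again lower in every pool, and the brightest had -0.24. Cdkn1c, mixed as deposited, was then lower in the superior array of every pool (-0.09 ± 0.05). So were Igf2r by 1424112_at (-0.19 ± 0.11) and Peg3 by 1433924_at (-0.10) and 1417355_at (-0.18).

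**Figure D3:**
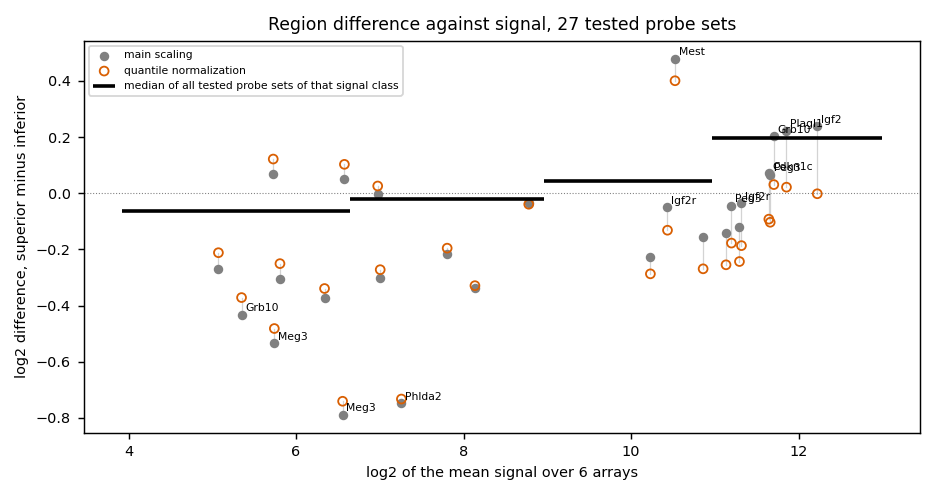
Difference in log2, superior minus inferior, against log2 of the mean signal over 6 arrays for the 27 tested probe sets, as deposited (filled) and after quantile normalization (open), with bars for the median of all tested probe sets of a signal class. Igf2, Grb10 and Plagl1 sit near the bar of the brightest class and near 0 after quantile normalization, while Mest, Phlda2 and the dimmer Meg3 probe sets move little.

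Markers of cell types were compared beside these values. All 6 epicardial markers were higher in the superior array of every pool, their summed signal being 885.8 to 1631.3 in superior and 455.5 to 752.1 in inferior pools. Of 7 heart muscle markers, the 5 sarcomere genes (Tnnt2, Myl7, Actc1, Myh7 and Tnni1) were higher in every pool, while the transcription factors Nkx2-5 (-0.31 ± 0.10) and Isl1 (-0.31 ± 0.08) were lower in every pool. Their sum, carried by the bright sarcomere genes, was 26145.9 to 33314.9 in superior and 24303.3 to 25252.8 in inferior pools. The 5 sarcomere genes all had mean signals above 2000. In that signal class the median difference was 0.20, with 68.3% of probe sets higher in every pool. After quantile normalization the class median was 0.0047. Neural crest markers summed to 88.8 to 122.8 in superior and 151.9 to 166.0 in inferior pools. Of these, Tfap2a and Dlx2 were lower in every pool and Sox10 was higher in every pool (0.31 ± 0.27), with Foxd3 at background and Dlx1 too dim to be tested. Of 5 cushion markers, 2 were lower in every pool and 3 were mixed, with sums of 5715.0 to 8704.2 in superior and 5397.0 to 7964.3 in inferior pools. Of 6 endocardial markers, 1 was higher in every pool, 1 lower and 4 mixed, with sums of 1454.1 to 1898.1 in superior and 1476.4 to 1704.1 in inferior pools. The 4 measured erythroid markers summed to 13791.5 to 22471.6 in superior and 12408.0 to 15541.8 in inferior pools, with 1 higher in every pool and 3 mixed. Of these, Hbb-bh1 (0.21), Hbb-y (0.24) and Hba-x (0.23) also lay in the class above 2000, and the dimmer Alas2 had -0.03. Of 5 endoderm and ectoderm markers, both tested ones were mixed, and the list summed to 67.5 to 94.1 in superior and 43.4 to 123.8 in inferior pools. The part of these cell types in the members' differences was not tested.

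Differences between pool numbers were not used to choose the members and could be tested, apart from Phlda2, whose pool values enter the fit it was chosen by. In limma's F-test of the pool number, 11 of the 26 other tested probe sets were called, beside 14.1% of all tested probe sets. They were 2 of 2 for Igf2r, 1 of 2 for Igf2, 2 of 3 for Plagl1, 1 of 3 for Peg3 and 5 of 11 for Meg3, with 0 for Cdkn1c, Grb10 and Mest. Probe sets of 1 gene behaved unlike each other. Peg3 by 1417356_at had 122.5, 560.8 and 533.6 in superior pools 1, 6 and 7 and 88.8, 633.2 and 694.6 in inferior pools, a 5.81-fold span of pool means (adjusted p = 0.000209 in limma). Pool 1 was far the lowest in both regions, yet Peg3 by 1433924_at spanned 1.06-fold (adjusted p = 0.833).

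Igf2 showed the same split. Its dim probe set 1415931_at was lowest in pool 1, with a mean signal of 31.5, and highest in pool 6, with 140.3, a 4.45-fold span (limma adjusted p = 0.000731), whereas 1448152_at spanned 1.27-fold (adjusted p = 0.166). For Igf2r both probe sets were lowest in pool 1, with spans of 1.58-fold and 1.55-fold (adjusted p = 0.0110 and 0.0113). Meg3 went both ways: 1439380_x_at was highest in pool 1, at a mean of 3110 (adjusted p = 0.0154), and 1436713_s_at was lowest there, spanning 2.20-fold (adjusted p = 0.00192). In all, pool 1 was lowest in 7 of the 11 called probe sets and highest in 4, beside 64.1% and 23.0% of all probe sets called by pool number. These calls rested on pool 1: without both of its arrays 0 members were called, without its superior array 4 and without its inferior array 3. The shares of all tested probe sets fell with them, to 1.31% without both arrays, 6.85% without the superior and 4.73% without the inferior one. Leaving out 1 array of pool 6 gave 15 members, beside 23.5% of all tested probe sets without the superior array and 23.9% without the inferior one. Without trend and robust variance 5 were called, beside 8.75% of all, and among the brightest 25% of probe sets 7, beside 12.8%.

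Array measures differed for pool 1 as well. The ratio of 5′ to 3′ signal for Actb, a measure of RNA integrity and labelling length, was 0.449 in superior and 0.443 in inferior pool 1, and ran from 0.534 to 0.688 in the arrays of pools 6 and 7. For Gapdh it was 0.769 in superior and 0.452 in inferior pool 1, and 1.11 to 1.20 in the others. The 5′ probe set for 18S ribosomal RNA had 31.0 in superior and 21.3 in inferior pool 1, and at least 454.6 in the others. The part of these measures in the pool differences was not tested.

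**Figure D4:**
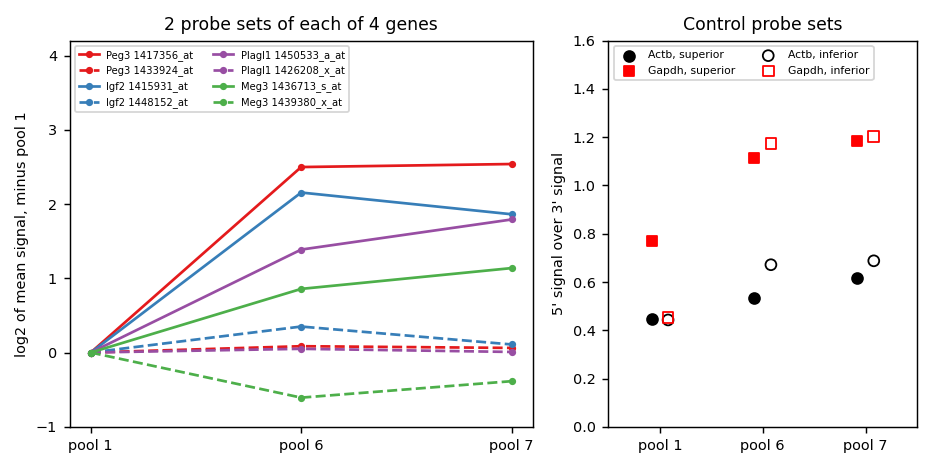
Left, log2 of the mean signal over both regions relative to pool 1, for a pair of probe sets of each of 4 genes. Right, the ratio of 5′ to 3′ signal of Actb and Gapdh on each array, with superior filled and inferior open. The solid probe set of each gene was picked for the largest span of pool means and the dashed one as the brightest, so a smaller dashed span follows from the choice. Solid ones lie lowest in pool 1, while dashed ones vary less or run the other way, and the ratios are lowest in pool 1. Other probe sets are not drawn, among them Plagl1 1438588_at, which was highest in pool 1.

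Other genes of the group and of the imprinted lists that lie near Phlda2 did not share its direction throughout. Of the 9 such genes within 2 Mb with a tested probe set, 2 were higher in the superior array of every pool, 1 was lower and 6 were mixed. Over all tested probe sets 15% were higher in every pool and 19% lower, and nothing is read from this count. The higher ones were Igf2 and Cd81 (0.08 ± 0.06). In their signal classes, above 2000 and from 500 to 2000, 68.3% and 27.8% of all tested probe sets were higher in every pool. After quantile normalization Igf2 was at -0.002. Nap1l4, a nucleosome assembly protein next to Phlda2, had a mean log2 difference of -0.05 ± 0.12, and Kcnq1ot1, the long RNA that silences the cluster on the paternal copy, one of -0.03 ± 0.36 (SD, n = 3 each). Beside Meg3, the maternally expressed RNA Rian had 287.2, 428.1 and 645.9 in superior pools 1, 6 and 7, against 353.7, 488.1 and 741.4 in inferior pools, lower in every superior array at -0.23 ± 0.06 (paired limma adjusted p = 0.417, not called). Mirg, the next RNA of that cluster, had -0.32 ± 0.27 and was also lower in every superior array, though by 0.01 in pool 6. Dlk1, the paternally expressed Notch-related protein of the cluster, was mixed at -0.05 ± 0.29.

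**Figure D5:**
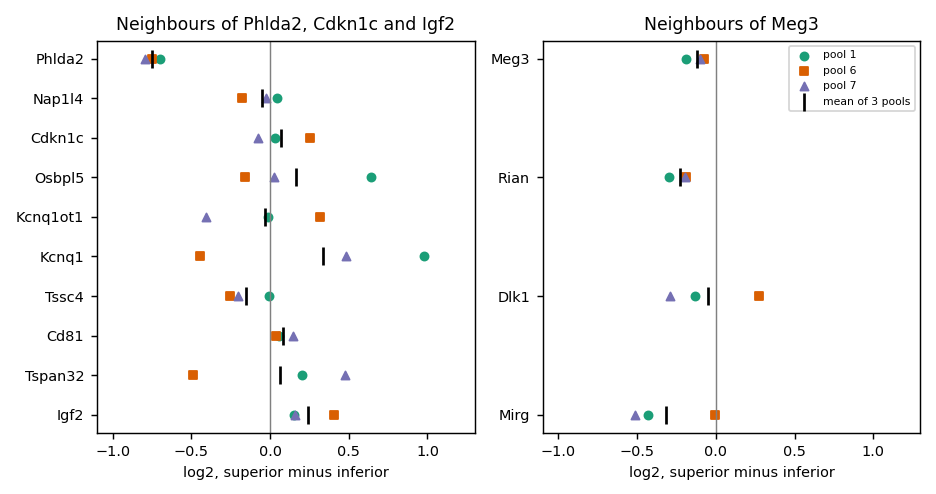
Difference in log2(signal + 3.2), superior minus inferior, for imprinted-cluster genes around Phlda2, Cdkn1c and Igf2 (left) and around Meg3 (right), with 1 marker per pool and a bar for the mean. Phlda2 has the lowest mean on the left, and Rian and Mirg lie left of 0 with Meg3.

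Across other imprinted genes, 38 of 58 listed could be tested, each by its brightest probe set. Of these 22 had a positive mean difference and 16 a negative one, with a median of 0.05 beside -0.00 over all tested genes. Only Dcn was called, and only in the paired fit. That fit called 0.0666% of all tested probe sets as lower and 0.0933% as higher in superior. The list was chosen with earlier results of these data known, so the call of Dcn is a description. Dcn, a collagen-binding proteoglycan imprinted in the mouse placenta, had 213.3, 271.9 and 89.1 in superior pools 1, 6 and 7, against 71.2, 81.6 and 19.2 in inferior pools, with no overlap and a log2 difference of 1.76 (SE 0.14, limma adjusted p = 0.00723 paired and 1.00 unpaired). The largest differences after it were Kcnq1 (0.34 ± 0.72) and Cobl (0.18 ± 0.37) among the positive ones, and Mkrn3 (-0.46 ± 0.37), Calcr (-0.33 ± 0.87) and Mirg among the negative ones, none called. By pool number 8 of the 38 were called, beside 14.1% of all tested probe sets: Nnat, Dcn, Rian, Dlk1, Tssc4, Kcnq1ot1, Zdbf2 and Phactr2.

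Of the IGF axis, which covers ligands, receptors, binding proteins and downstream genes, 20 of 27 listed genes were tested. In limma, 0 were called in the unpaired or the paired fit, with 0 at an unadjusted p below 0.05 unpaired and 1 paired. Of all 22518 tested probe sets, 792 had such a p unpaired and 2473 paired. The unpaired fit called 0% of all, and the paired fit 0.0666% as lower and 0.0933% as higher in superior. The median difference was -0.01. Igf1r, the receptor through which Igf2 signals, had 511.3, 506.4 and 516.1 in superior pools 1, 6 and 7, against 593.3, 601.0 and 539.9 in inferior pools. Its superior signals lay all below the inferior ones, at -0.17 ± 0.10 (paired limma adjusted p = 0.506). That held for 1 of the 20 tested genes, beside 4.56% of all tested probe sets. Igf1r was named outside the naming rule, and nothing is read from this. Igfbp7, an IGF-binding protein relative, was lower in every superior array at -0.34 ± 0.09 (adjusted p = 0.262). Foxo3 and Irs1 had -0.22 ± 0.12 and -0.22 ± 0.44, and the largest positive differences were those of Igfbp3 (0.48 ± 1.43), Pappa (0.24 ± 0.39) and Igfbp2 (0.21 ± 0.54).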

How the data were processed

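The authors deposited 1 linear intensity signal per probe set and array. Per the submitters' processing notes these are MAS5 signals, of a version not stated there.  Of 45101 probe sets, 64 controls were left out. The platform annotation named 1 gene for 34945 of the others, several for 932 and none here for 9160. From these signals log2(signal + 3.2) was computed, 3.2 being their 25th percentile, which understates changes of dim genes. Probe sets above the median of mean log2 values (a signal of about 15.1) were tested, 22518 in all. Background was the highest signal of 27 unspiked Bacillus controls. The number of arrays limits the precision.

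Regions were fitted with limma 3.58.1 in R 4.3.3 (lmFit, eBayes with trend and robust variance) over all tested probe sets, with Benjamini-Hochberg adjustment and a threshold of 0.05. The main fit had no pool term, leaving 4 residual degrees of freedom, and the paired fit, which adds the pool number as a blocking term, left 2. Same-numbered arrays deviated together from their region's mean (pool 1: r = 0.793 across probe sets, with 0.428 in pool 6 and 0.507 in pool 7). Between arrays of unlike number, r was 0.18 and 0.199 for pools 6 and 7, and -0.54 to -0.457 for pool 1 against the others. Arrays were paired on this basis, which comes from the same data as the paired fit and the pool number test. The labels do not state this pairing. The script was tested on simulated data.

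The members and lists were chosen with earlier results of these data known. Named are all members and, of the other lists, genes called between regions and the 3 largest differences in each direction. Imprinted genes called by pool number are named too, and Igf1r was named outside this rule. Neighbours, taken from the members and imprinted lists alone, were chosen by position after the data were seen. Alternatives were other offsets, scalings, filters, variance settings and probe set rules, the pool block, and leaving out arrays or pools.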

Additional observations from a re-analysis of the deposited data

Results flagged for a closer look

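The probe set that names Mir675 and H19 together was outside the chosen probe sets and carried a strong signal on every array, the lowest being 3471.8 in inferior pool 1, far above the background of 8.0. Its pool number test in limma had an adjusted p of 0.0513.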

How the results depend on the processing

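The unpaired fit called 0 probe sets between regions, and the fit with the replicate block, which pairs pools, called 36; leaving out arrays or pools from the unpaired fit gave 0 throughout. The pool number test called 3174 probe sets, 1660 without the filter, 1444 in the brightest 25%, 1970 without trend and robust variance, and 294 to 5384 when arrays or pools were left out, fewest without pool 1. The median difference of other imprinted genes, 0.05, was -0.0078 without pool 1 and at most 0.044 with other arrays or pools left out. That of IGF axis genes, -0.01, was -0.072 after quantile normalization, 0.031 after 75th percentile scaling, -0.047 without the filter and -0.13 with all probe sets averaged, and ran from -0.088 to 0.0025 when arrays or pools were left out. By brightest probe set, 6 of 9 genes were higher in superior, 3 after quantile normalization and 5 to 7 with arrays or pools left out. Of all tested probe sets, 44.9% were higher in superior. All of those 6 but Mest had mean signals above 2000, a class with a median difference of 0.20 over all tested probe sets. Nothing is read from this count. Igf2 came to -0.0019 after quantile normalization and Grb10 to -0.15 with its probe sets averaged. Meg3 ran from -0.27 to 0.059 over the arrays left out, and was 0.0049 without superior pool 6. With whole pools left out, which keeps the pairs, Meg3 ran from -0.14 to -0.089. The cause of these shifts was not tested. Of the members' single pool tests, 347 kept their side of the threshold over the alternatives, 42 lost a call and 19 gained one. Dim probe sets near the background of 8.0 limit what can be read.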

Other observations

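Relatives of the members were read as a further list of 8 genes, 6 of them tested and 0 called in either region fit. In limma, 2 had an unadjusted p below 0.05 in each fit. Of all 22518 tested probe sets, 792 did so unpaired and 2473 paired. Superior signals lay all above the inferior ones for 4.65% of all tested probe sets and all below for 4.56%. The list was chosen with earlier results of these data known, so nothing is read from these counts. Phlda1, a relative of Phlda2, had 731.2, 659.0 and 681.0 in superior pools 1, 6 and 7, against 1087.3, 861.5 and 880.7 in inferior pools. Its superior signals lay all below the inferior ones, at a log2 difference of -0.44 ± 0.11 (SD, n = 3, paired limma adjusted p = 0.144). Phlda3 was at 0.10 ± 0.12. Grb14, an adaptor related to Grb10, had 184.0, 137.2 and 188.5 in superior pools, against 135.3, 111.3 and 114.0 in inferior pools, and its superior signals lay all above the inferior ones (0.48 ± 0.21, paired limma adjusted p = 0.255). Cdkn1b, a relative of Cdkn1c, was at 0.07 ± 0.31 and Plagl2 at -0.07 ± 0.18.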
